A study of Mus musculus with 6 samples.

Results

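CD300 and Siglec genes encode paired receptors of the immunoglobulin superfamily, and 9 of them were followed here in inflamed mouse skin: Cd300a, Cd300lb, Cd300ld, Cd300lf, Cd300lg, Siglece, Siglecg, Siglec1 and Cd33. They were taken by gene symbol from a deposited table of 18939 genes. The table holds FPKM, a level scaled to gene length and to the mapped reads of each library, in 6 libraries of messenger RNA from whole skin. The 3 CKO libraries (replicates 1, 2 and 5) carry a genotype label of a VAMP7 conditional knockout in basophils. The 3 FLOX libraries (replicates 2, 3 and 5) carry a wild-type label. VAMP7 belongs to the SNARE proteins, which fuse vesicles with target membranes, and basophils are rare granulocytes. By its title, the whole series used an MC903-OVA model, in which a vitamin D analogue (calcipotriol) inflames the skin; OVA usually stands for ovalbumin, a protein antigen. The sources used here do not give the Cre line, the animals' age and sex, the days of treatment or whether a library is 1 animal. Untreated skin was not analysed here.

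Paired receptors come as inhibitory and activating forms with related extracellular parts. An inhibitory receptor has a long cytoplasmic tail with an ITIM, a short motif around a tyrosine that recruits phosphatases once phosphorylated. An activating receptor has a short tail and a charged residue in its membrane segment, through which it pairs with an adaptor such as DAP12 (Tyrobp) or the Fc receptor gamma chain (Fcer1g). CD300 receptors bind lipids exposed on dying or activated cells, and Siglecs bind sialic acids on glycans. In skin these genes are known mainly from neutrophils, macrophages, dendritic cells, mast cells and basophils, and Cd300lg from endothelium.

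The tail motifs that set inhibitory members apart were read from the coding sequences, and 4 of the 9 members have them. An ITIM was searched as 6 residues: serine, isoleucine, valine or leucine, then any residue, the tyrosine, any pair of residues, and isoleucine, leucine or valine. The related ITSM opens with threonine and ends with valine or isoleucine. The search covered the part after the most hydrophobic stretch of 19 residues, taken as the membrane segment. Each line gives the 18 bases that encode a motif, 5′ to 3′ from GENCODE M21 transcripts, with the tyrosine codon in capitals, and the number of codons from that tyrosine to the stop.
Cd300lf ITIM, 97 codons: ctctgtTATgcagacctg
Cd300lf ITIM, 49 codons: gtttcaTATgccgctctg
Cd300lf ITSM, 13 codons: acagagTACagcagcatc
Cd300a ITIM, 57 codons: gtggaaTATagcacattg
Cd300a ITIM, 45 codons: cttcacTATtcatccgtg
Siglece ITIM, 36 codons: atacatTATgcgaccctc
Siglece ITSM, 13 codons: acggagTACtcagagata
Siglecg ITIM, 99 codons: ctggacTACatcaatgtg
Siglecg ITIM, 30 codons: ctccacTATgctgctctc
Siglecg ITIM, 7 codons: tctgatTACacagaggtc
No ITIM was found after the hydrophobic stretch in Cd300lb, Cd300ld, Cd300lg, Siglec1 or Cd33. Cd300lb and Cd33 each had 1 basic residue inside that stretch and Cd300ld had 1 acidic residue, while the other 6 members had no charged residue there. The tails measured 33 residues in Cd300lb and 24 in Cd300ld, and 125 in Cd300lf and 113 in Cd300a.

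The libraries had FPKM sums from 556412 to 594987, and no pair was identical. Read depth is unknown, so no counting interval is given. The correlation of log2(FPKM + 1) across genes was 0.993 to 0.996 within groups and 0.983 to 0.994 across them. CKO replicate 2 lay farthest out on the first principal component, which held 56.4% of the variance, at 31.1 against 14.9 and 6.0 for the other CKO libraries and -18.9 to -15.5 for the FLOX libraries. Summed skeletal muscle markers were 537.7 to 1449.1 FPKM in CKO and 182.1 to 414.1 FPKM in FLOX libraries. Vamp7, the targeted gene, had FPKM values of 19.71, 19.11 and 19.73 in the CKO libraries and 20.4, 21.51 and 20.77 in the FLOX libraries (limma adjusted p = 0.475). Other skin cells also express it, so whole skin gives no check of a deletion in basophils. In bulk skin, fewer cells of a type and less RNA per cell cannot be told apart.

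All 9 members passed the filter of 1 FPKM in 3 libraries. CKO skin had lower levels of Cd300lf, Siglece and Cd33, the members past the test across 12994 genes (limma, Benjamini-Hochberg, threshold 0.05). Their limma adjusted p of 0.047, just under the threshold, was also the smallest of any gene in the fit. Of all genes tested 0.954% were called, 0.6% lower and 0.354% higher, and the members had 0 higher calls. At an unadjusted limma p under 0.05, 6 members were lower and 1 higher. Over all 12994 genes, 1162 were lower and 1641 higher at that p. The median log2 fold change was -0.66 over the members and 0.03 over all tested genes, and 7 members had a negative value. These 3 calls depended on single libraries. Without FLOX replicate 2, FLOX replicate 3 or FLOX replicate 5 no member passed, and 0, 0 and 3 of all genes passed. At an unadjusted limma p under 0.05, 5, 5 and 6 members were lower and 1 higher in these fits. Over all genes tested, 878, 963 and 983 were lower and 1119, 1436 and 1446 higher. Without CKO replicate 2, Cd300lf alone passed. No member passed with no filter, with quantile normalization, without the intensity trend or with robust empirical Bayes. There, 5 or 6 members were lower and 1 higher at an unadjusted p under 0.05 in limma. Over all genes tested, 1126 to 1350 were lower and 1285 to 2074 higher in these 4 fits.

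Among the receptors with an ITIM, Cd300lf and Siglece fell and Cd300a and Siglecg did not pass. Cd300lf (NCBI Gene ID 246746) encodes an inhibitory receptor that binds ceramide and phosphatidylserine and restrains mast cells and neutrophils in mice. It measured 22.8, 13.2 and 23.05 FPKM in CKO replicates 1, 2 and 5, against 44.28, 45.98 and 46.05 FPKM in FLOX replicates 2, 3 and 5. The FLOX libraries lay close together and above every CKO library, with CKO replicate 2 the lowest. Its mean was 19.7 ± 5.62 FPKM in CKO, against 45.4 ± 1.0 FPKM in FLOX skin (SD, n = 3 each), a log2 fold change of -1.21 (SE 0.19, limma adjusted p = 0.047). It still passed without CKO replicate 1, 2 or 5, and not without any 1 FLOX library (adjusted p up to 0.162).

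Siglece (83382) encodes the main inhibitory Siglec of mouse neutrophils and macrophages. It measured 6.74, 3.87 and 7.05 FPKM in CKO libraries, against 15.75, 12.8 and 14 FPKM in FLOX libraries. The groups did not overlap, and CKO replicate 2 was again the lowest. The means were 5.89 ± 1.75 FPKM in CKO, against 14.2 ± 1.48 FPKM in FLOX skin, with a log2 fold change of -1.17 (SE 0.19, limma adjusted p = 0.047). Without any 1 library other than CKO replicate 5 it no longer passed (adjusted p up to 0.162).

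Cd300a (217303), which binds phosphatidylserine and phosphatidylethanolamine and inhibits mast cells, measured 31.27, 20.33 and 22.55 FPKM in CKO and 25.1, 30.08 and 28.86 FPKM in FLOX libraries. The highest of all 6 values was CKO replicate 1, so the groups overlapped. The log2 fold change was -0.19 with a 95% interval of -0.56 to 0.17 (limma adjusted p = 0.526). Its difference from Cd300lf was not tested.

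Siglecg (243958), an inhibitory receptor best known from B cells, was the lowest member. It measured 1.37, 1.2 and 1.86 FPKM in CKO and 2.01, 2.84 and 1.78 FPKM in FLOX libraries. CKO replicate 5 exceeded FLOX replicate 5, and the difference did not pass (log2 fold change -0.37, SE 0.16, limma adjusted p = 0.226). The B cell markers Ms4a1, Cd79a and Pax5 were at or below 0.4 FPKM in every library.

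**Figure D1:**
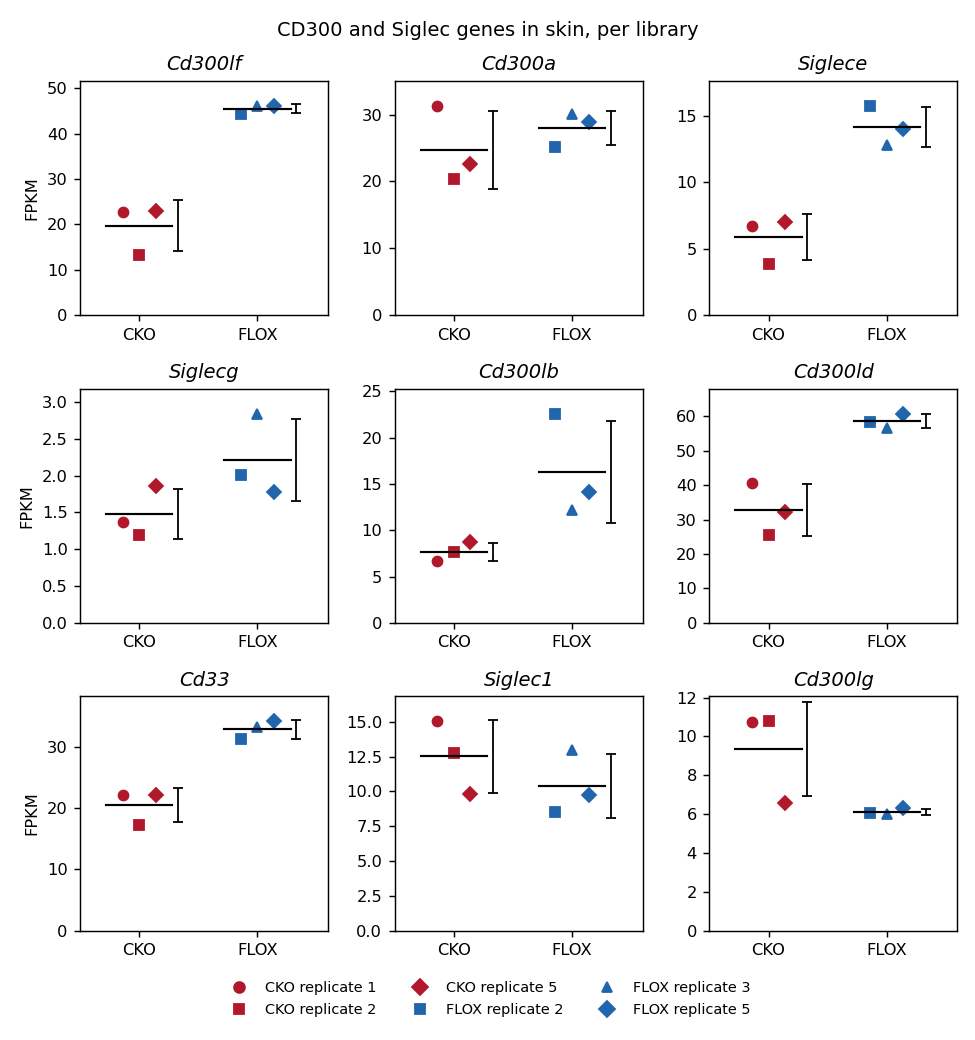
FPKM of each of the 9 genes in each library, CKO left and FLOX right; points are libraries (symbols mark the replicate number), horizontal lines are means and bars are 1 SD (n = 3). Cd300lf, Siglece, Cd33, Cd300ld and Cd300lb have every CKO library below every FLOX library, Cd300lg has the reverse, and Cd300a, Siglecg and Siglec1 overlap.

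The members without a tail ITIM split by gene. Cd33 (12489) encodes a myeloid Siglec; unlike human CD33, the mouse protein lacks the canonical ITIM. It measured 22.16, 17.23 and 22.13 FPKM in CKO and 31.24, 33.24 and 34.18 FPKM in FLOX libraries. All CKO libraries were lower, with little spread in either group. Its means were 20.5 ± 2.84 FPKM in CKO, against 32.9 ± 1.5 FPKM in FLOX skin (log2 fold change -0.66, SE 0.11, limma adjusted p = 0.047). The call was lost without any 1 library other than CKO replicate 5, with an adjusted p of up to 0.162.

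Cd300ld (217305), an activating receptor that pairs with the Fc receptor gamma chain, was the most abundant member in each group. It measured 40.73, 25.51 and 32.12 FPKM in CKO and 58.35, 56.62 and 60.74 FPKM in FLOX libraries. The highest CKO library lay well below the lowest FLOX library. The difference lay just outside the threshold, with a log2 fold change of -0.84 (SE 0.15, 95% interval -1.2 to -0.49, limma adjusted p = 0.0514). It passed without CKO replicate 1 (0.0494).

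Cd300lb (217304), an activating receptor that signals through DAP12, measured 6.69, 7.62 and 8.69 FPKM in CKO and 22.57, 12.15 and 14.09 FPKM in FLOX libraries. FLOX replicate 2 was far above the other FLOX libraries, and the coefficient of variation was 13.1% in CKO and 34.1% in FLOX skin. The log2 fold change was -0.95 (SE 0.21, limma adjusted p = 0.0645), and -0.71 without FLOX replicate 2.

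Siglec1 (20612) encodes sialoadhesin (CD169), an adhesive Siglec of macrophages. It measured 15.02, 12.72 and 9.82 FPKM in CKO and 8.48, 12.97 and 9.74 FPKM in FLOX libraries. The groups overlapped, and the positive log2 fold change of 0.25 had a 95% interval of -0.18 to 0.67 (limma adjusted p = 0.485).

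Cd300lg (52685) encodes nepmucin, a mucin-like receptor of endothelium and not of leukocytes. It measured 10.74, 10.77 and 6.58 FPKM in CKO and 6.07, 5.99 and 6.29 FPKM in FLOX libraries. CKO replicates 1 and 2 were high, while CKO replicate 5 lay just above the FLOX range. The log2 fold change was 0.51 (SE 0.17, limma adjusted p = 0.14), and without CKO replicate 5 it was 0.72 and passed (0.0313). In the same CKO libraries 9 of 10 endothelial markers had positive fold changes (median 0.16), none passed, and their summed level was 191.5 to 259.4 FPKM in CKO, against 196.5 to 219.3 FPKM in FLOX skin. All 6 adipocyte markers were positive (median 0.85, none past the test), with sums of 338.8 to 805.8 FPKM in CKO, against 239.9 to 484.5 FPKM in FLOX skin. The part of these cells in the Cd300lg level was not tested.

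Every CKO library lay below every FLOX library for 5 members, and above for 1. Of all genes tested, 11.4% had every CKO library lower, 15.5% every CKO library higher, and 27.0% one or the other. Each of these 6 members had an exact two-sided permutation p = 0.1, the smallest that 3 libraries against 3 allow.

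**Figure D2:**
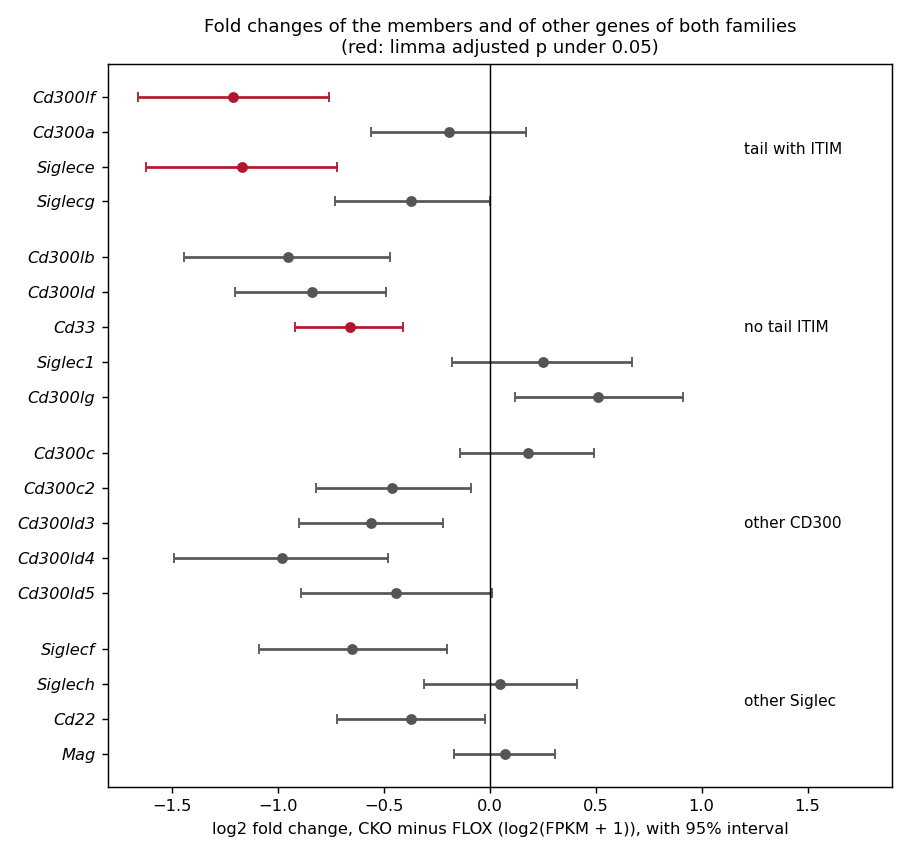
Log2 fold change (CKO minus FLOX, on log2(FPKM + 1)) with its 95% limma interval, for the 9 genes grouped by whether the coding sequence has an ITIM after the membrane stretch, and for the tested CD300 and Siglec genes outside them. Red marks the 3 that passed, Cd300lf, Siglece and Cd33; the intervals of Cd300a, Siglecg and Siglec1 reach or lie near 0 and Cd300lg lies to the right.

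The order of the members differed between the groups. In CKO skin it was Cd300ld (mean 32.8 FPKM), Cd300a, Cd33, Cd300lf, Siglec1, Cd300lg, Cd300lb, Siglece and Siglecg (1.48 FPKM), and only Siglece and Siglecg were neighbours with ranges that did not overlap. In FLOX skin it was Cd300ld (58.6 FPKM), Cd300lf, Cd33, Cd300a, Cd300lb, Siglece, Siglec1, Cd300lg and Siglecg (2.21 FPKM). There, only Cd300lb with Siglece and Siglece with Siglec1 had overlapping ranges. FPKM is scaled to gene length, so these levels can be set side by side.

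The 5 CD300 members summed to 112.2, 77.4 and 93.0 FPKM in CKO and 156.4, 150.8 and 156.0 FPKM in FLOX libraries. Cd300lf made up 20.7% of that sum in CKO and 29.4% in FLOX skin on average, and Cd300a 26.1% in CKO and 18.2% in FLOX skin. Cd300lg made up 10.2% in CKO and 3.96% in FLOX skin. The 4 Siglec members summed to 45.3, 35.0 and 40.9 FPKM in CKO and 57.5, 61.9 and 59.7 FPKM in FLOX libraries. Siglece held 14.4% of it in CKO and 23.8% in FLOX skin, and Siglec1 31.2% in CKO and 17.3% in FLOX skin.

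Ratios within a library do not depend on its scaling. They are given as a description with no test, and apart from the sum of activating over inhibitory CD300 genes they were chosen after the values were seen. Cd300lf over Cd300a, both with an ITIM, was 0.729, 0.649 and 1.02 in CKO and 1.76, 1.53 and 1.6 in FLOX libraries. Cd300a thus exceeded Cd300lf in 2 of 3 CKO libraries and in 0 of 3 FLOX libraries. The ratio of the activating Cd300ld to Cd300a was 1.3, 1.25 and 1.42 in CKO and 2.32, 1.88 and 2.1 in FLOX libraries. Set against the other inhibitory gene, Cd300ld over Cd300lf went the other way, with 1.79, 1.93 and 1.39 in CKO and 1.32, 1.23 and 1.32 in FLOX libraries, also without overlap. The activating sum (Cd300lb and Cd300ld) over the inhibitory sum (Cd300a and Cd300lf) was 0.877, 0.988 and 0.895 in CKO and 1.17, 0.904 and 0.999 in FLOX libraries, so the groups overlapped. Siglece over Cd33 was 0.304, 0.225 and 0.319 in CKO and 0.504, 0.385 and 0.41 in FLOX libraries, without overlap.

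**Figure D3:**
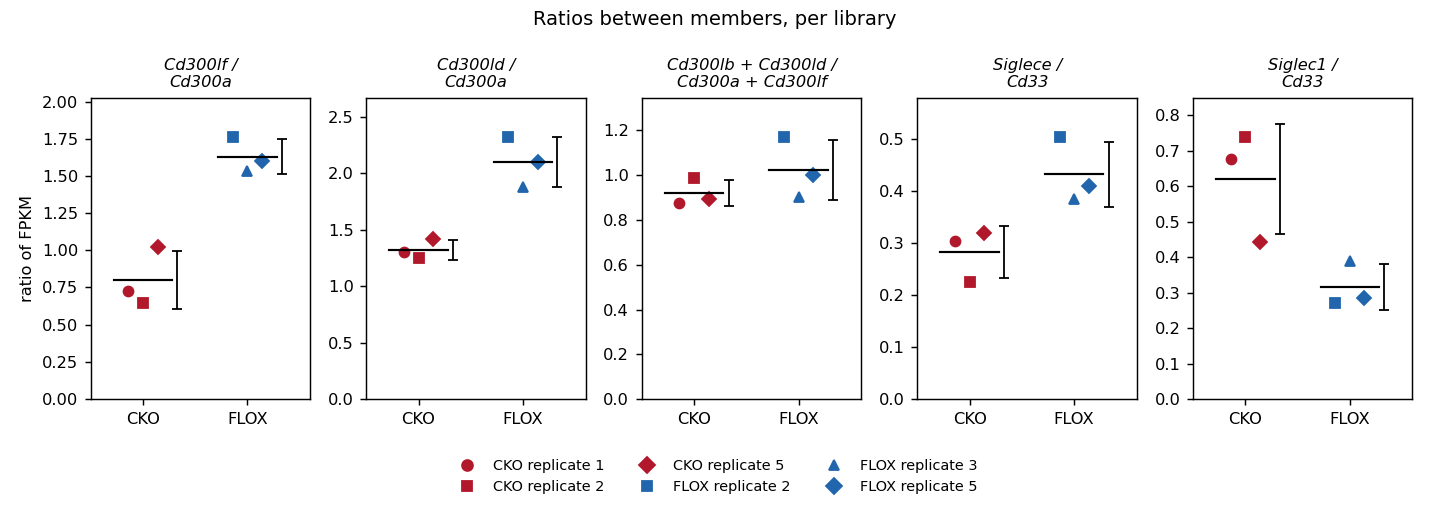
Ratios of FPKM between members in each library, CKO left and FLOX right, with the mean and 1 SD (n = 3). Cd300lf / Cd300a, Cd300ld / Cd300a and Siglece / Cd33 are lower in every CKO library, Siglec1 / Cd33 is higher in every CKO library, and the activating over inhibitory CD300 ratio overlaps.

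Markers of leukocytes moved with the members. Of 12 neutrophil markers 8 were tested, and Ly6g and Ngp reached the filter only through the FLOX libraries. The other 6 had negative fold changes, and Cxcr2, Mmp8, Retnlg and S100a9 fell (4 of 6, median -1.19). Those 6 summed to 2573.1 to 3415.3 FPKM in CKO, against 4450.0 to 6151.4 FPKM in FLOX skin, while the granule genes Ltf, Camp, Mpo and Elane stayed at or under 0.7 FPKM in all libraries. Most of each neutrophil sum was S100a8 (mean 1622.1 FPKM in CKO, 2916.9 FPKM in FLOX) and S100a9 (1147.8 FPKM in CKO, 2309.9 FPKM in FLOX). Whether keratinocytes or other skin cells supply part of S100a8 and S100a9 was not tested. Of 10 general leukocyte markers, Cd53 and Vav1 fell and 10 were negative (median -0.42), with sums of 723.4 to 935.0 FPKM in CKO, against 1130.4 to 1331.7 FPKM in FLOX skin. Monocyte and macrophage markers were negative in 12 of 13 (median -0.25, none past the test), with sums of 3557.1 to 4135.7 FPKM in CKO, against 4266.8 to 4461.8 FPKM in FLOX skin. All 8 basophil markers were tested, and Prss34 reached the filter only through the FLOX libraries. Of the other 7, Mcpt8, a basophil protease, fell (20.8 ± 6.63 FPKM in CKO, 98.9 ± 18.1 FPKM in FLOX), 5 were negative and the median was -0.24. The 8 summed to 246.3 to 279.4 FPKM in CKO, against 314.6 to 367.7 FPKM in FLOX skin, but without Mcpt8 the sums overlapped, at 231.0 to 260.4 FPKM in CKO and 236.2 to 254.8 FPKM in FLOX libraries. Most of each sum without Mcpt8 was Cpa3, at 177.81 to 190.62 FPKM in CKO and 165.59 to 182.96 FPKM in FLOX libraries. Which cells supply Cpa3 and the other listed genes in whole skin, basophils or mast cells, was not tested. The overlap is therefore no measure of basophil RNA. Fcer1a, Il3ra and Cpa3, which overlapped between the groups, had log2 fold changes of -0.09, 0.01 and 0.08. Cd200r3, Gata2 and Ms4a2 had -0.62, -0.54 and -0.24 and did not pass. Each was lower in every CKO library than in every FLOX library, as were 11.4% of all genes tested. Eosinophil markers had a median of -0.51 (Ear2 alone passed, higher in CKO, and Epx was near 0), mast cell markers 0.34, T cell markers 0.27, dendritic and Langerhans cell markers 0.1 and keratinocyte markers 0.42, with no call in those last 4 lists. The part of these cell types in the members' levels was not tested.

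Subtracting the mean of a marker list shifts all members alike in a library, so it moves where they lie relative to 0 and not their distances from each other. The next values are the difference between groups (CKO minus FLOX) of a member's log2(FPKM + 1) less the mean of a list, as a description with no test; the neutrophil and the macrophage list were set as the base after the values were seen. Relative to the leukocyte list, Cd300lf was at -0.71 and Siglece at -0.68, each without overlap, and Cd33 was at -0.17 with overlap. Against the monocyte and macrophage list Cd300lf stood at -0.92, Siglece at -0.88 and Cd33 at -0.37, all 3 without overlap. Against the neutrophil list, whose own mean was 1.22 lower in CKO skin on this scale, Cd300lf was at 0.01 and Siglece at 0.05 with overlapping groups. Without Ly6g and Ngp these were 0.06 and 0.1, again with overlap. With the full list Cd33 was 0.55, Cd300a 1.02 and Siglec1 1.46 above FLOX, without overlap. Leaving out Ly6g and Ngp, these were 0.61, 1.08 and 1.52, again without overlap. As a plain ratio to Ptprc, the gene of the leukocyte antigen CD45, Cd300lf was 0.659, 0.402 and 0.645 in CKO and 0.868, 0.994 and 1.03 in FLOX libraries. Cd300a per Ptprc was 0.904, 0.618 and 0.631 in CKO and 0.492, 0.65 and 0.646 in FLOX libraries.

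**Figure D4:**
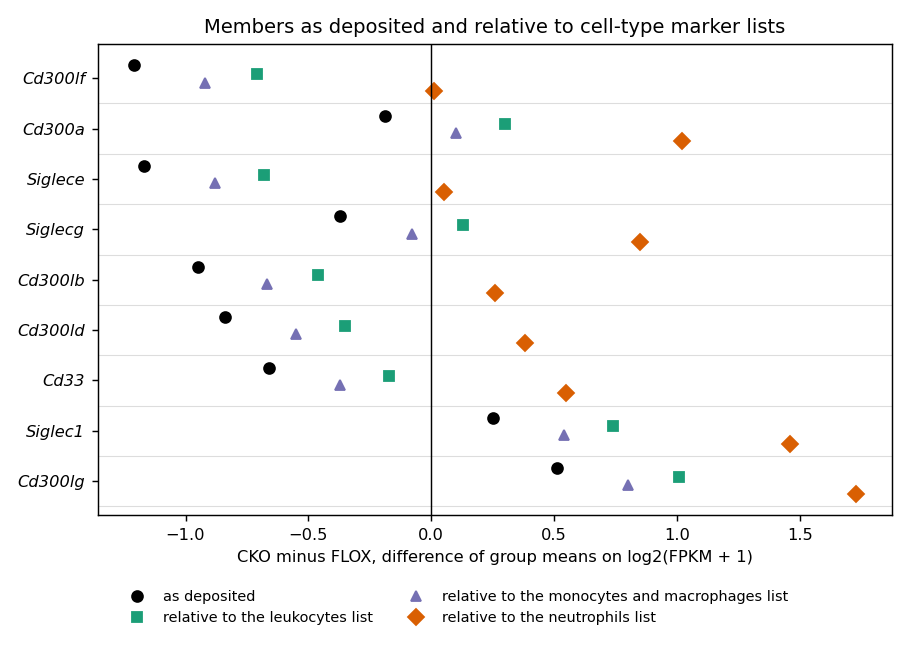
Difference of group means (CKO minus FLOX) on log2(FPKM + 1) for each member, as deposited and after subtracting the mean of the leukocyte, the monocyte and macrophage, or the neutrophil marker list in each library. Cd300lf and Siglece lie near 0 against the neutrophil list (0.01 and 0.05) and below 0 against the other lists, whereas Cd300a, Siglec1 and Cd300lg lie above 0 against the leukocyte list. The neutrophil list drawn here holds Ly6g and Ngp, which reached the filter only through the FLOX libraries. Without those genes, Cd300lf and Siglece were at 0.06 and 0.1.

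The genes whose library profiles came nearest to a member were looked for among 12630 named genes, by the root mean square difference of mean-centred log2(FPKM + 1) over the 6 libraries, for members whose groups did not overlap. For Siglece they were Cxcr2, a chemokine receptor of neutrophils (difference 0.0671), and Ffar2, a receptor for short-chain fatty acids (0.0758). Cxcr2 measured 28.79, 20.42 and 34.18 FPKM in CKO and 72.51, 56.76 and 62.3 FPKM in FLOX libraries. Cd300lf came nearest to Srgn, the core protein of granule proteoglycan (0.0765), and then to Siglece (0.101). Nearest to Cd33 were Nxpe5 (0.0756) and the lipoxygenase gene Alox5 (0.0769), and to Cd300ld the olfactomedin gene Olfm4 (0.0752) and the sorting receptor gene Sorl1 (0.0873). Olfm4 measured 0.97, 0.23 and 0.61 FPKM in CKO and 1.54, 1.93 and 1.89 FPKM in FLOX libraries. It thus reached the filter only through the FLOX libraries, and at such levels log2(FPKM + 1) understates its change. Cd300lb lay near Dhrs9, a dehydrogenase gene (0.09), and the metalloprotease gene Adam8 (0.112), which share its high value in FLOX replicate 2. Cd300lg was nearest to Serping1, a complement inhibitor gene (0.0598), and the imprinted gene Peg3 (0.0713). These genes were picked from the whole table for likeness, so the values describe these 6 libraries.

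Promoters of 7 member genes were in the RefSeq table of GRCm38.p6 (8 promoters, 250 bases before to 50 after each start); Siglec1 and Cd300lg had no entry. The ETS core AGGAAG, which PU.1 and related myeloid factors can bind, stood on either strand in 7 of the 8 promoters and in all 7 genes, against 35.4% of 32851 promoters. The longer PU.1 motif GAGGAAGT, which contains AGGAAG, was in Cd300lf and Cd300ld, against 3.2% of promoters. The C/EBP motif TTNNGCAA was in Cd300a (10.8% of promoters) and the TATA box letters TATAAA in Cd300lb and Cd300lf (13.6%). All motifs were searched on either strand. In Cd300lf the match is the complement TTTATA, so TATAAA does not stand in the direction of the gene there. The 3 members that fell and Cd300ld are shown from 150 bases before the start base to 14 after it, 5′ to 3′ on the minus strand, with AGGAAG or its complement CTTCCT in capitals. A match is a description and not a binding site.
Cd300lf, chr11:115133978-115134142: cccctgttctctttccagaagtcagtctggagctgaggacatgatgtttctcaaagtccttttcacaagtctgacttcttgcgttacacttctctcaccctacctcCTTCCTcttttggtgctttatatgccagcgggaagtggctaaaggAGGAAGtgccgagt
Cd300ld, chr11:114989872-114990036: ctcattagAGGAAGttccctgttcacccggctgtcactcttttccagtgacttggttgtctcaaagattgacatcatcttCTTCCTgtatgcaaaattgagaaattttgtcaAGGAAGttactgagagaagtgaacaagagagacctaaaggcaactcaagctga
Siglece, chr7:43660147-43660311: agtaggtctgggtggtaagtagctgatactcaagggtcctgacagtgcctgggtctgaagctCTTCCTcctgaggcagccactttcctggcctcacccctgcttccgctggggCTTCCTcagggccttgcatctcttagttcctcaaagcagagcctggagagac
Cd33, chr7:43533157-43533321: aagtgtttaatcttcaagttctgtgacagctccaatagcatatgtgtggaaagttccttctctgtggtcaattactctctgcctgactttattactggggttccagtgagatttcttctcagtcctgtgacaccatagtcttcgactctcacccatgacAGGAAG

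Reads were 50 bases long, so each member's transcript was checked for stretches of 50 bases that also occur in transcripts of another gene. None were shared for Cd300lb, Siglece, Siglec1 and Cd33. Cd300lf shared 6.78% of its stretches, most with Cd300ld, which shared 3.89%. The share was 3.59% for Cd300a, 0.174% for Cd300lg and 8.65% for Siglecg, and values of these genes are uncertain to that extent. The relatives Cd300ld3, Cd300ld4 and Cd300ld5 shared 82.1%, 93.8% and 100.0%, so their values cannot be assigned to single genes.

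Other genes of the families gave no call in this fit. The table held 7 other CD300 genes, of which 5 were tested, and 4 had negative fold changes (median -0.46). Cd300ld5 averaged 126.6 ± 29.3 FPKM in CKO, against 172.1 ± 36.3 FPKM in FLOX skin, and Cd300ld3 90.0 ± 10.3 FPKM in CKO, against 134.2 ± 24.0 FPKM in FLOX skin. Of 5 other Siglec genes 4 were tested (median -0.16). Siglech, of plasmacytoid dendritic cells, measured 11.1 ± 0.796 FPKM in CKO, against 10.8 ± 2.39 FPKM in FLOX skin, and Siglecf, of eosinophils, 3.37 ± 0.793 FPKM in CKO, against 5.86 ± 1.44 FPKM in FLOX skin (limma adjusted p = 0.108).

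Genes that carry the receptors' signals mostly had negative fold changes. Of 8 adaptor and kinase genes all had negative fold changes (median -0.59), and the Src-family kinase gene Fgr fell (14.9 ± 2.47 FPKM in CKO, 26.0 ± 1.53 FPKM in FLOX). Tyrobp, the adaptor of Cd300lb, measured 519.45, 326.34 and 441.84 FPKM in CKO and 689.09, 685.69 and 617.03 FPKM in FLOX libraries (limma adjusted p = 0.0802). Fcer1g, the adaptor of Cd300ld, measured 298.44, 204.75 and 308.14 FPKM in CKO and 369.24, 405.76 and 337.53 FPKM in FLOX libraries (limma adjusted p = 0.153). None of 4 genes of ITIM-recruited phosphatases and Csk passed (median -0.27). Ptpn6, which encodes a phosphatase of blood cells, averaged 28.7 ± 2.86 FPKM in CKO, against 38.6 ± 3.8 FPKM in FLOX skin. Inpp5d, the inositol phosphatase gene, averaged 30.4 ± 3.35 FPKM in CKO, against 38.2 ± 1.95 FPKM in FLOX skin, and the widely expressed Ptpn11 27.5 ± 1.39 FPKM in CKO, against 26.6 ± 0.644 FPKM in FLOX skin.

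Paired receptors of other families had the same sign as most members. Of 17 activating receptor genes tested all were negative (median -0.62), and the C-type lectin gene Clec4d fell (36.8 ± 10.2 FPKM in CKO, 96.2 ± 21.6 FPKM in FLOX). Its relative Clec4n averaged 112.9 ± 9.66 FPKM in CKO, against 174.8 ± 20.6 FPKM in FLOX skin (limma adjusted p = 0.0514). Of 13 inhibitory receptor genes 11 were negative (median -0.54) and none passed. Fcgr2b, the inhibitory IgG receptor, averaged 470.7 ± 87.0 FPKM in CKO, against 687.7 ± 65.1 FPKM in FLOX skin, and Lilrb4a 133.8 ± 23.8 FPKM in CKO, against 241.5 ± 51.5 FPKM in FLOX skin.

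Genes that make or remove sialic acids, and genes of phospholipid scrambling and apoptotic cell receptors, showed no call. All 6 genes of sialic acid synthesis lay between -0.18 and 0.18 in log2 fold change, among them Cmas, the activating enzyme (23.0 ± 0.938 FPKM in CKO, 24.7 ± 1.02 FPKM in FLOX), and Nans, the synthase (17.4 ± 0.211 FPKM in CKO, 17.6 ± 1.93 FPKM in FLOX). The 11 tested sialyltransferase genes had a median of 0.01. St3gal4, which caps glycans with sialic acid, was the most abundant of them at 32.9 ± 6.1 FPKM in CKO, against 48.8 ± 5.58 FPKM in FLOX skin (limma adjusted p = 0.079), and St3gal1 averaged 18.1 ± 2.58 FPKM in CKO, against 21.6 ± 2.47 FPKM in FLOX skin. Of 3 tested sialidase genes, the lysosomal Neu1 averaged 10.7 ± 1.52 FPKM in CKO, against 15.1 ± 1.09 FPKM in FLOX skin, and Neu2 2.98 ± 0.884 FPKM in CKO, against 2.76 ± 0.925 FPKM in FLOX skin. The 10 tested genes of phospholipid scrambling and apoptotic cell receptors had a median of 0.03. Gas6, a bridging ligand for phosphatidylserine, averaged 195.0 ± 9.71 FPKM in CKO, against 168.8 ± 7.52 FPKM in FLOX skin, and Mfge8 105.6 ± 18.5 FPKM in CKO, against 82.8 ± 14.5 FPKM in FLOX skin.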

How the data were processed

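The submitters' processing notes name HISAT as a tool, with no version. The sources used here give no counter, build or annotation. Libraries were made from oligo(dT)-purified RNA and read as single ends on DNA nanoballs, per the labels' protocols. The deposited values are FPKM, per the file headers, rounded to 2 decimals. The labels do not say that libraries are separate animals, so p-values cover only how much these libraries vary, and that variation may be technical. Low values did not step in whole reads between libraries, so depth is unknown.

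A gene was tested where 3 or more libraries had 1 FPKM or more (12994 genes; 5945 were left out). The test was limma 3.58.1 (R 4.3.3) on log2(FPKM + 1), using an intensity trend, no covariate and Benjamini-Hochberg adjustment; FPKM are not counts, so a count test was not used. This scale understates the change of low genes. The fit was tested on simulated data. Members and gene lists (23 lists beside the members, 219 names, 6 of them not matched) were chosen with earlier results of these data known. Named genes were the members, per list those past the threshold and the 2 with the highest mean, and nearest profiles, plus Ptpn11 and some marker genes, picked after their values were seen. Coding motifs, shared stretches and transcripts came from GENCODE M21 and promoters from RefSeq GRCm38.p6, whose build may differ from the authors'. Alternatives were pseudocounts of 0.1 and 5, no filter, 5 FPKM, 2 scalings, 2 empirical Bayes settings, the replicate number as a block and leaving out each library. Results of some listed genes are not reported here.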

Additional observations from a re-analysis of the deposited data

How the results depend on the processing

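All 9 members kept the sign of their fold change under every alternative; of 134 alternative values over the members, 101 kept their side of the threshold, 28 lost the call and 5 gained it. The count of members called (3) became 0 with no filter, with quantile normalization, without the intensity trend and with robust empirical Bayes. In each, limma gave 5 or 6 members lower and 1 higher at an unadjusted p under 0.05. All genes tested gave 1126 to 1350 lower and 1285 to 2074 higher in those fits. The count of genes called (124) became 1 with no filter, 187 with 5 FPKM, 0 with quantile normalization (1285 higher and 1350 lower unadjusted), 32 without the trend and 10 with robust fitting. Median-ratio scaling called 42 higher and 116 lower, against 46 and 78. Cd300ld passed with 5 FPKM, with median-ratio scaling and with the block, and Siglece was lost with a pseudocount of 0.1. Leaving out 1 library gave 0 to 4 members and 0 to 417 genes called. With the replicate number as a block, 219 genes and 2 members passed (Cd300lf and Cd300ld). Only numbers 2 and 5 are shared between the groups, and the numbers come from the sample titles. Deviations from the group mean correlated at r = 0.13 and -0.11 in same-numbered pairs, and at -0.39 to 0.23 in the other pairs. With 3 libraries per group, these values cannot tell whether a number marks a shared batch. Siglecg was not tested at 5 FPKM; read depth is unknown. The causes of these changes were not tested. The marker lists without Ly6g, Ngp, Prss34 or Mcpt8 were added after seeing the data.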
